A study of Mus musculus with 2 samples.

Results

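Calca and Penk, a pair of genes that encode neuropeptide precursors, were followed in T cells sorted from adult mouse skin and lung. The members are these 2 of the 27514 genes listed for both tissues, chosen by their skin and lung levels in earlier results of the same data, and they were read in every cell barcode with at least 1 unique molecular identifier (UMI) of the T cell receptor chain genes Cd3d, Cd3e or Cd3g in sum. That held for 6510 of 6601 skin barcodes and 8399 of 8730 lung barcodes. After removal of barcodes with few genes, many mitochondrial UMIs or a high doublet score, 6012 skin cells (14534494 UMIs, median 2047 per cell) and 7841 lung cells (21617733 UMIs, median 2351) remained.

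The study compared 1 library of back skin with 1 library of lung. The skin library came from Foxp3-CreERT2GFP C57Bl/6 mice and the lung library from Foxp3-GFP C57Bl/6 mice of the strain that the labels call Tachilla, and no treatment is named for either. In both, GFP reports Foxp3, which specifies regulatory T cells (Tregs). The sort took cells that carried GFP, CD45, CD3 and CD4 after digestion of the tissue with collagenase. With 1 library per tissue there is no replicate check: tissue, mouse strain, library and annotation version cannot be told apart, and all intervals below are exact 95% intervals that cover counting error only. A level is given in CPM, counts of UMIs scaled to the total of the cells named, and in pooled cells fewer holding cells and less RNA per cell cannot be told apart by a CPM value alone.

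Calca is spliced in different ways into mRNAs for the hormone calcitonin and for calcitonin gene-related peptide (CGRP), a vasodilator and immune modulator best known from sensory neurons. Penk encodes proenkephalin, which is cut into the opioid peptides Met-enkephalin and Leu-enkephalin. Both precursors need proteases to release the active peptide, so an mRNA level is not a peptide level. CGRP acts through the receptor chain Calcrl with Ramp1, and enkephalins act mainly through the delta and mu opioid receptors.

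Calca (ENSMUSG00000030669) lies on the minus strand of chromosome 7, from 114631478 to 114636357 in GENCODE M21 for GRCm38, with 7 annotated transcripts. The counts are per gene, so CGRP and calcitonin transcripts were not separated. Penk (ENSMUSG00000045573) lies on the minus strand of chromosome 4, from 4133531 to 4138819, with 2 transcripts, and its 5′ end overlaps A830012C17Rik on the plus strand (4138321 to 4188703), which neither list of counted genes contains. The library chemistry counts RNA near its 3′ end, and the strand setting of the counting is not given in the sources used here.

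The stretch before the start of Calca is shown because cyclic AMP response elements are a known feature of this promoter. The RefSeq table of promoters (GRCm38.p6) holds 1 entry for Calca and the 130 bases before its start, chr7:114636358-114636487 on the minus strand, read 5′ to 3′ as follows, with capitals marking a TGACG element, the core of a cyclic AMP response element, 65 bases before the start.
Calca promoter: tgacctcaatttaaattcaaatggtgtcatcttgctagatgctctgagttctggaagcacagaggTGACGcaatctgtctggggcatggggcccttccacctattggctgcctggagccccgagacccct
Both strands of the 250 bases before the start were searched for 5 motifs. TGACG had 1 match and occurs in 17.8% of the 32851 promoters of the table. The GATA element (AGATAA or TGATAA) had 1 match, 218 bases before the start, and occurs in 16.6%. The full palindrome TGACGTCA, the AP-1 element TGANTCA and the TATAAA box had 0 matches, and are held by 1.55%, 6.75% and 12.4% of the promoters. These are letters in a sequence window and no measure of binding.

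In skin, 5403 Calca UMIs were counted, a level of 372 CPM (362 to 382), in 1800 of 6012 cells (29.9%). In lung, there were 5 Calca UMIs in 4 of 7841 cells, 0.231 CPM (0.0751 to 0.540). Penk stood at 155 CPM (149 to 162) in skin, with 2259 UMIs in 980 cells (16.3%), and at 6.80 CPM (5.75 to 7.99) in lung, with 147 UMIs in 68 cells (0.867%). Over genes listed for both tissues, the skin to lung ratio was 1603 (686 to 4938) for Calca and 22.8 (19.3 to 27.1) for Penk, or 6.17 and 3.76 on a log2 scale with 5 CPM added to both sides. Of the 5686 genes with at least 20 CPM in either tissue, on that scale 4.13% favoured skin by 4-fold or more and 1.42% favoured lung, and Calca ranked 4 and Penk 37 from the skin side. The members were chosen for this pattern, so these ratios are a description and no test.

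The tissues were then compared at equal depth. When every cell was thinned at random to 1000 UMIs, a depth that 72 lung cells and 0 skin cells did not reach, a Calca UMI was found in 1180 skin cells (19.6%, 18.6 to 20.7) and in 2 lung cells (0.0257%, 0.00312 to 0.0930). A Penk UMI was found in 541 skin cells (9.0%, 8.29 to 9.75) and in 33 lung cells (0.425%, 0.293 to 0.596). Cells just inside and just outside the Cd3 rule differed little in skin. The 202 cells with 1 Cd3 UMI held Calca at 188 CPM (146 to 240) and Penk at 146 CPM (108 to 191), and the 67 cells with none held 198 CPM (124 to 299.7) and 117 CPM (62.3 to 200.005). The 5810 cells with more Cd3 UMIs held 376 and 156 CPM.

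The skin cells came as a sort of Foxp3 reporter cells, yet Foxp3 itself was sparse, as it often is in such libraries. At 1000 UMIs, a Foxp3 UMI was found in 25 of the 1180 Calca-holding cells (2.12%, 1.38 to 3.11) and in 2.15% (1.76 to 2.60) of the 4832 others. For Penk the shares were 11 of 541 cells (2.03%, 1.02 to 3.61) and 2.16% (1.79 to 2.58). In the 327 skin cells with a Foxp3 UMI at full depth, Calca stood at 434 CPM (393 to 478) and Penk at 116 CPM (95.1 to 140), against 367 and 158 CPM in the 5685 cells without one. Of 274 lung cells with a Foxp3 UMI, 0 held Calca and 0 held Penk.

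Both genes were concentrated in few skin cells. Of the Calca UMIs, 55.2% lay in the 320 cells (5.32%) with at least 5 of them, and the highest cell held 51. For Penk, 98 cells (1.63%) with at least 5 UMIs held 47.8% of the total, and the highest cell held 35. Single UMIs made up 16.9% of the Calca and 30.1% of the Penk total. The Calca-high cells were about as deep as the rest, with a median of 2292 UMIs, and the Penk-high cells were deeper, with a median of 3244. At 1000 UMIs per cell the variance of Calca was 4.24 times its mean and that of Penk 3.0 times, against 1.07 for Cd3e, a gene of all T cells, 1.24 for Gapdh and 3.27 for the cytokine gene Il13.

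**Figure D1:**
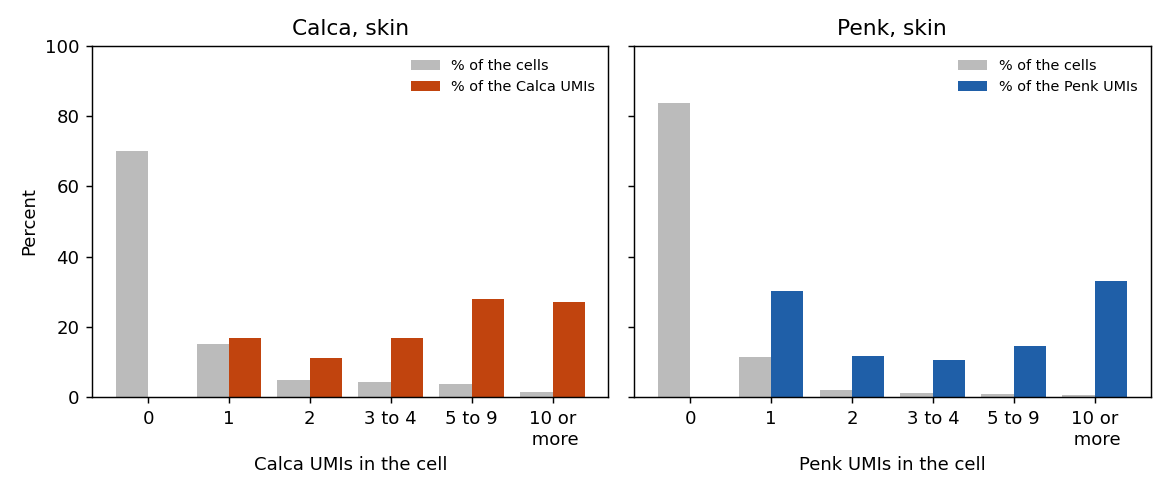
Skin cells with a Cd3 UMI by the number of Calca (left) or Penk (right) UMIs in the cell. Grey bars give the percent of the 6012 cells and coloured bars the percent of all UMIs of the gene: cells with 10 or more UMIs are 1.46% of cells and 27.2% of the UMIs for Calca, and 0.749% and 33.1% for Penk.

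Sorted droplet libraries carry free RNA from other cells, which gives single UMIs to cells that do not make a gene. In skin, 117 cells with a Cd3 UMI fell into 3 clusters led by genes of other cell types (fibroblast-like, antigen-presenting-like, and a small cluster led by Ccl21a, Igfbp3, Fabp4, Serpine2 and Coch), with a median of 5179 UMIs against 2032 in the T cell clusters. In the last of these clusters 5 of 5 muscle or pericyte markers were at least 4-fold up, but so were 5 of 6 endothelial and 5 of 8 keratinocyte markers, so it is called by its leading genes. At 1000 UMIs per cell, 5.98% (2.44 to 11.9) of these 117 cells held Calca against 20.02% (19.002 to 21.06) of the 5895 cells in T cell clusters. For Penk the shares were 5.13% (1.90 to 10.8) and 8.99% (8.27 to 9.75), intervals that overlap. A single Penk UMI thus does not tell cells of the T cell clusters from these 117 cells. Whether such UMIs are free RNA or were made by the cells that hold them was not tested. Over all 138 cells of the 3 clusters, the Calca level was 16.2% (11.8 to 21.7) of that in the T cell clusters. It was near Cd3g at 15.1% and Il13 at 15.4%. The Penk level in these 138 cells was 85.5% (69.0 to 105) of that in the T cell clusters. Of the 96 Penk UMIs in the 138 cells, 25 lay in the highest cell, so this level and its interval rest in part on that cell. The Penk level without that cell was not computed. The Penk-high cells lay almost wholly in T cell clusters, 96 of 98, as did 319 of 320 Calca-high cells.

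The 7 markers fixed for neurons and neuroendocrine cells (among them Chga, Snap25, Prph and Stmn2) all had 0 UMIs in Calca-holding and in Penk-holding skin cells at 1000 UMIs per cell, and 6 UMIs in all cells without Calca. Markers of T cells were at similar summed levels with and without Calca (4149 and 4009 CPM) and with and without Penk (4063 and 4034 CPM). The 8 fibroblast markers summed to 419 CPM with and 1162 CPM without Calca, and to 752 CPM with and 1042 CPM without Penk, with 1 marker at 0 among the holding cells of either gene. In the full counts the order differed for Penk: the fibroblast sum was 1251 CPM in cells with 0 Penk UMIs, 4184 CPM with 1, 16865 CPM with 2 to 4, and 1772 CPM with at least 5, where 75.4% of these UMIs lay in 1 cell. The 6 antigen-presenting cell markers were higher with Penk, at 793 CPM (720 to 872) against 609 CPM (588 to 630) and in 32.5% against 27.5% of cells, and lower with Calca, at 502 CPM (462 to 544) against 655 CPM (633 to 679), with 1 marker at 0 in each class. Keratinocyte markers stood at 61.9 and 62.5 CPM for Calca and at 53.6 and 63.2 CPM for Penk. The share of cells with at least 10 fibroblast UMIs was 0.313% of Calca-high and 2.04% of Penk-high cells (2 cells), against 1.42% of cells without Calca, 0.894% of cells without Penk and 7.46% of the 201 cells with 2 to 4 Penk UMIs. The part of these other cell types in the Penk counts and in the genes given by Penk below was not tested.

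The skin cells were clustered without Calca and Penk. Calca was highest in cluster 0, 1028 cells led by the type 2 cytokine gene Il13, Pxdc1, the leukotriene receptor gene Cysltr1 and Il10, at 884 CPM (846 to 923), and these cells held 38.5% of its UMIs. Next came cluster 2 (led by the early response genes Fos and Klf6 and by Tnf) at 465 CPM (434 to 498) and cluster 5 (Tff1, the costimulatory receptor gene Tnfrsf9 and the decoy receptor gene Il1r2) at 442 CPM (407 to 479), whose intervals overlap. Clusters 3 (Irs2, Rrad) and 6 (Cxcl2, Plin2) did not differ beyond their intervals, at 366 and 364 CPM. The proliferating-like cluster 7 at 184 CPM and cluster 1 (Cd7, the CD40 ligand gene Cd40lg, Ms4a4b) at 180 CPM followed. Cluster 4, led by the folate receptor family gene Izumo1r (FR4), Tbc1d4, the lymph node homing receptor gene Ccr7 and the chemokine gene Ccl1, had 78.0 CPM (66.0 to 91.5), and the small clusters 8 to 11 had 37.8 to 64.7 CPM with intervals that overlap each other and that of cluster 4.

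Penk had another order. It was highest in cluster 5, at 447 CPM (412 to 485), and cluster 4, at 409 CPM (381 to 438), whose intervals overlap. These 2 clusters make up 1249 of the 6012 cells and held 60.6% of the Penk UMIs and 13.5% of the Calca UMIs. Cluster 10 followed at 167 CPM, where 25 of 31 UMIs lay in 1 cell, then the fibroblast-like cluster 8 at 152 CPM (115 to 197) and cluster 6 at 142 CPM (117 to 171). Clusters 3, 2, 0, 7 and 1 lay between 57.4 and 82.8 CPM, neighbours in that order with overlapping intervals, and clusters 9 and 11 had 52.9 and 28.8 CPM from 7 and 3 UMIs. Cluster 5 thus held both genes at a like level, 442 and 447 CPM, cluster 0 held Calca at 12.5 times the level of Penk, and cluster 4 held Penk at 5.24 times the level of Calca. CPM from counts near the 3′ end carry no length term, so these ratios compare molecules counted.

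**Figure D2:**
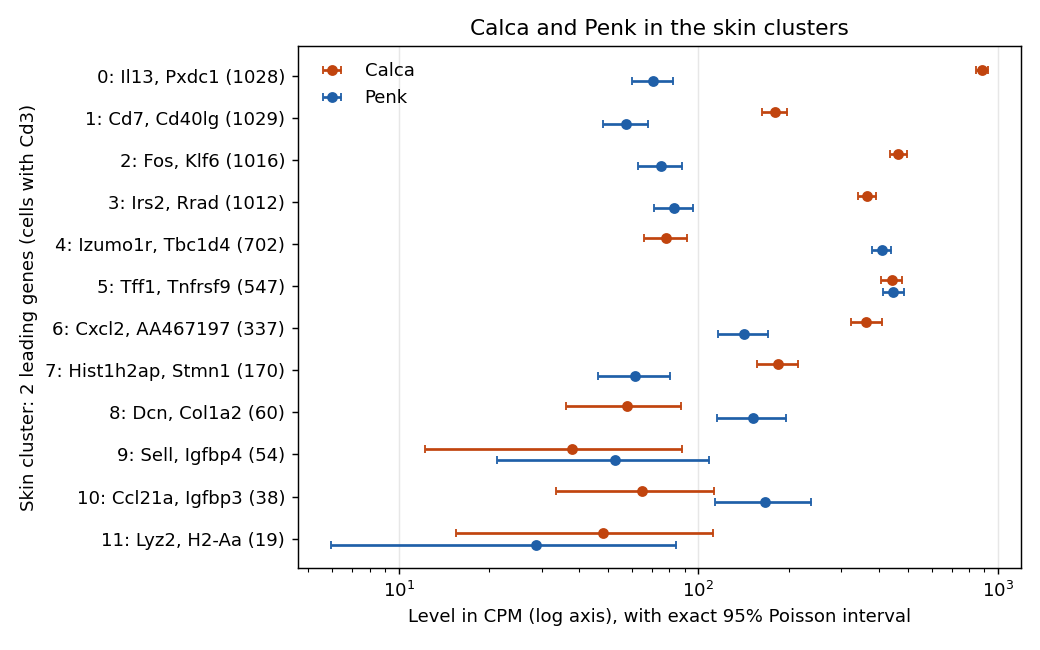
Level of Calca and Penk in CPM (log axis) in each of the 12 skin clusters, with exact Poisson intervals, and with the 2 leading genes and the number of cells with Cd3. Calca is highest in cluster 0 (884 CPM), Penk in clusters 4 and 5 (409 and 447 CPM), and cluster 5 is the T cell cluster where both are high.

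The high cells showed the same split, and as they held 55.2% of the Calca and 47.8% of the Penk UMIs, this largely repeats the cluster levels. Cluster 0 held 145 of the 320 Calca-high cells and 3 of the 98 Penk-high cells, and cluster 4 held 2 and 48. In cluster 5 there were 36 Calca-high (6.58%) and 32 Penk-high cells (5.85%) among 547, and 0 cells were high in both. With at least 1 UMI at 1000 UMIs per cell, 18 cells of this cluster held both, where the product of the separate shares gives 19.3. That product was not computed for the high cells of the cluster. With shares this small, their count of 0 is not read as a sign that the 2 genes avoid each other there. Clusters 1, 2 and 3, with 3057 cells, held 107 Calca-high and 6 Penk-high cells.

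Calca and Penk were next compared cell by cell at equal depth. At 1000 UMIs per cell, 90 skin cells held both, where the product of the separate shares gives 106, an odds ratio of 0.80 (0.63 to 1.02). Penk was found in 7.63% of cells with and 9.33% of cells without Calca. A second random draw of the 1000 UMIs gave an odds ratio of 0.60 (0.46 to 0.79), so the value moved with the draw alone. In the full counts 288 cells held both against a product of 293 (odds ratio 0.97), pooled over 4 bands of depth the odds ratio was 0.92, and at 1000 UMIs pooled over clusters it was 0.93. Single strata lay on both sides of 1. Cluster 0, where Calca was highest, had 26 cells with both against a product of 21.3 (1.43), cluster 7 had 5 against 1.38 (8.33), the other clusters with at least 5 such cells had 0.51 to 0.91, and the deepest of the 4 bands had 1.10 in full counts. The interval spans 1 in the first draw, and it does not in the second draw or at 500 UMIs per cell (0.58, 0.37 to 0.88). It also lay below 1 with at least 2 Cd3 UMIs (0.71, 0.55 to 0.91) and with no cell filter (0.74, 0.58 to 0.94). Among the settings where it spanned 1 were the highest doublet scores kept (0.95, 0.76 to 1.19), T cell clusters alone (0.85, 0.67 to 1.08) and 2000 UMIs per cell (0.81, 0.64 to 1.03).

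Cells with much of either gene were set apart at a minimum of 5 UMIs, chosen after the data had been seen. Of 320 cells with at least 5 Calca UMIs and 98 with at least 5 Penk UMIs, 0 were in both groups, where the product of the shares gives 5.22 cells. That product is over all skin cells and takes no account of the clusters, which the 2 groups fill unequally. Taken as 3 counts of the total, and not as an exact interval, a count of 0 allows up to 0.938% of the Calca-high cells and up to 3.06% of the Penk-high cells. The most Penk UMIs in a Calca-high cell was 4, and so was the most Calca in a Penk-high cell. At a minimum of 3 UMIs, 11 cells held both against a product of 16.3, and at 2 UMIs 44 cells against 44.0. A Penk UMI was present in 49 of 320 Calca-high cells (15.3%, 11.5 to 19.7) and in 16.4% (15.4 to 17.3) of the rest, but the Penk level was 81.3 against 160 CPM. A Calca UMI was present in 22 of 98 Penk-high cells (22.4%, 14.6 to 32.0) against 30.1% (28.9 to 31.3) of the rest, at 96.8 against 379 CPM, although the Penk-high cells were deeper.

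**Figure D3:**
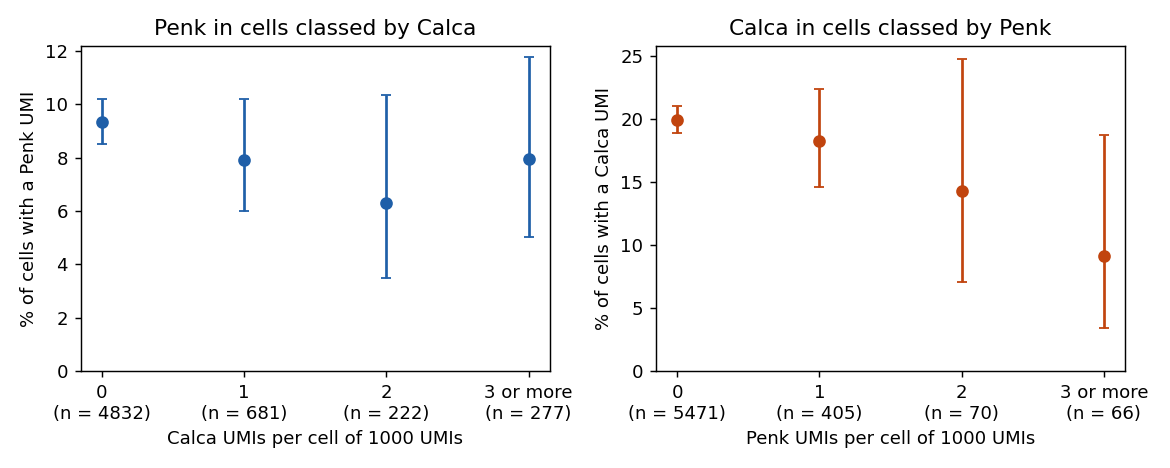
Percent of skin cells with a Penk UMI by the Calca UMIs of the cell (left) and with a Calca UMI by the Penk UMIs (right), all cells thinned to 1000 UMIs, with exact 95% Clopper-Pearson intervals and the number of cells. The Penk share stays between 6.31% and 9.33%, and the Calca share lies between 19.9% at 0 and 9.09% at 3 or more Penk UMIs, where 66 cells leave a wide interval (3.41 to 18.7).

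For scale, the same table was made for other genes. Il13 was found in 19.9% of cells with and 9.85% of cells without Calca (odds ratio 2.28), Il4 in 7.37% and 2.96% (2.61), Il10 in 26.6% and 16.9% (1.78), and Izumo1r in 5.0% and 10.8% (0.43). Tnfrsf9 differed little by Calca (16.9% and 16.1%). By Penk it was found in 22.4% and 15.6% (1.55), and Izumo1r in 18.7% and 8.77% (2.39). Il13 and Areg did not follow Penk, with odds ratios of 1.04 and 1.00.

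The genes most like each member were taken by Pearson correlation of log(1 + UMIs) over the 6012 thinned skin cells, among 4987 genes with a UMI in at least 2% of them. All cells share 1 library, so the order of the genes is a description with no test. The correlations with Calca and with Penk were small, from -0.115 to 0.156. The part of the depth of 1000 UMIs per cell in this was not tested. Calca was closest to Il13 (r = 0.156). After it came the calcium-binding protein gene S100a6 (0.132), Fgl2, which encodes a secreted suppressive protein (0.131), the cytokine gene Il10 (0.130), the tissue homing chemokine receptor gene Cxcr6 (0.128), Ly6a (0.117), the nuclear RNA Malat1 (0.113), Il4 (0.110), Pxdc1 (0.106) and Btg1 (0.0934). Among the lowest were Ms4a4b (-0.100), Tmsb10 (-0.0964), Izumo1r (-0.0792) and Naca (-0.0720).

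Penk was closest to Izumo1r (r = 0.112), the inhibitory ligand gene Cd200 (0.106) and Tnfrsf9, which encodes 4-1BB (0.105). Cd81 (0.0931), the activation marker gene Cd83 (0.0790), the NF-kappaB subunit gene Rel (0.0782), H2afz, Bcl2a1d, the Rab GTPase-activating protein gene Tbc1d4 and Hsp90ab1 (0.0682) followed. Bcl2a1d has near-identical copies, so its count is uncertain. The lowest were Crip1 (-0.115), S100a6 (-0.0956), the nuclear lamina gene Lmna (-0.0930), Vim (-0.0916) and Tmsb4x (-0.0865). Calca and Penk had r = -0.0249 with each other. Izumo1r and S100a6 stood on opposite sides, Izumo1r with Penk and S100a6 with Calca.

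**Figure D4:**
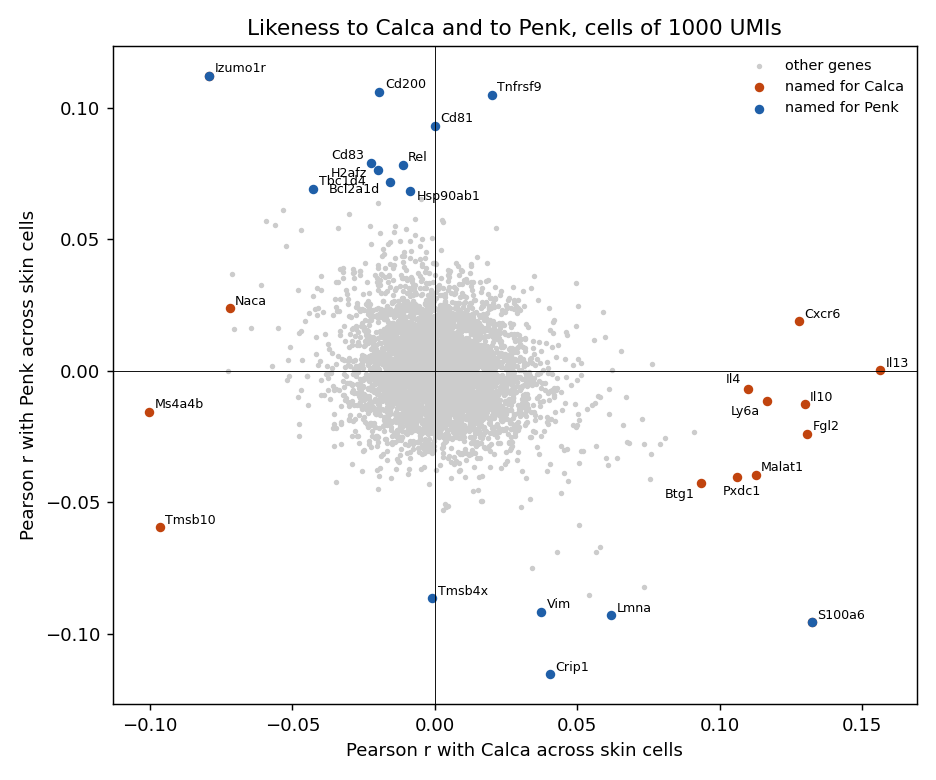
Pearson r of each of 4987 genes with Calca (horizontal axis) and with Penk (vertical axis) over 6012 skin cells of 1000 UMIs, without the members themselves. Named genes are coloured (S100a6 and Izumo1r were named for both), and of those at the right edge Il13 (r = 0.156 with Calca) lies near 0 for Penk and S100a6 (0.132) at -0.0956. The named genes at the top (Izumo1r, 0.112 with Penk) lie at or below 0 for Calca, apart from Tnfrsf9 at 0.0200 and Cd81 near 0.

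The same genes were read again within clusters. They had been picked over all 6012 cells, of which each cluster is a part, so a kept sign is partly set by that choice. The share of all genes with a positive r in each cluster was not computed, and the counts below are a description. Inside cluster 0 alone, all 10 of the Calca-like genes kept a positive r (0.0509 to 0.202), with Il13 at 0.202. Outside cluster 0 all 10 were positive too (0.0745 to 0.119). For Penk, all 10 genes were positive within clusters 4 and 5 pooled (0.0199 to 0.132), and 9 of 10 within cluster 5, where Hsp90ab1 (0.229) and Tnfrsf9 (0.210) were highest and Tbc1d4 was -0.0340. Other single clusters kept fewer signs: within cluster 0, 6 of the 10 Penk-like genes were positive (down to -0.0509 for Cd200) and 3 of the 5 genes lowest for Calca stayed negative, and within cluster 4, 7 of the 10 Calca-like genes were positive. Outside clusters 4 and 5 the 10 Penk-like genes had r between 0.00188 and 0.0548, and the 10 Calca-like genes between 0.0866 and 0.170.

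The levels of some named genes are given by the number of UMIs of the member. These genes were chosen by their correlation with it over the same thinned cells, so the steps restate that choice and are no separate result. In thinned cells with 0, 1, 2 and at least 3 Calca UMIs, Il13 stood at 157, 276, 356 and 693 CPM, and Il10 at 291, 410, 604 and 744 CPM. Il4 was at 38.5, 64.6, 144 and 159 CPM in the same classes. Izumo1r went the other way, at 157, 67.5, 63.1 and 32.5 CPM, as did Ms4a4b, at 424, 307, 194 and 144 CPM. By Penk UMIs, Tnfrsf9 stood at 224, 323, 614 and 955 CPM and Cd200 at 96.5, 151, 243 and 515 CPM. Izumo1r, low with Calca, was at 124, 222, 371 and 515 CPM with Penk, and Lmna was at 1977, 1711, 1300.0 and 879 CPM. The highest Penk class has 66 cells, and its Tbc1d4 level rests on 8 UMIs.

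**Figure D5:**
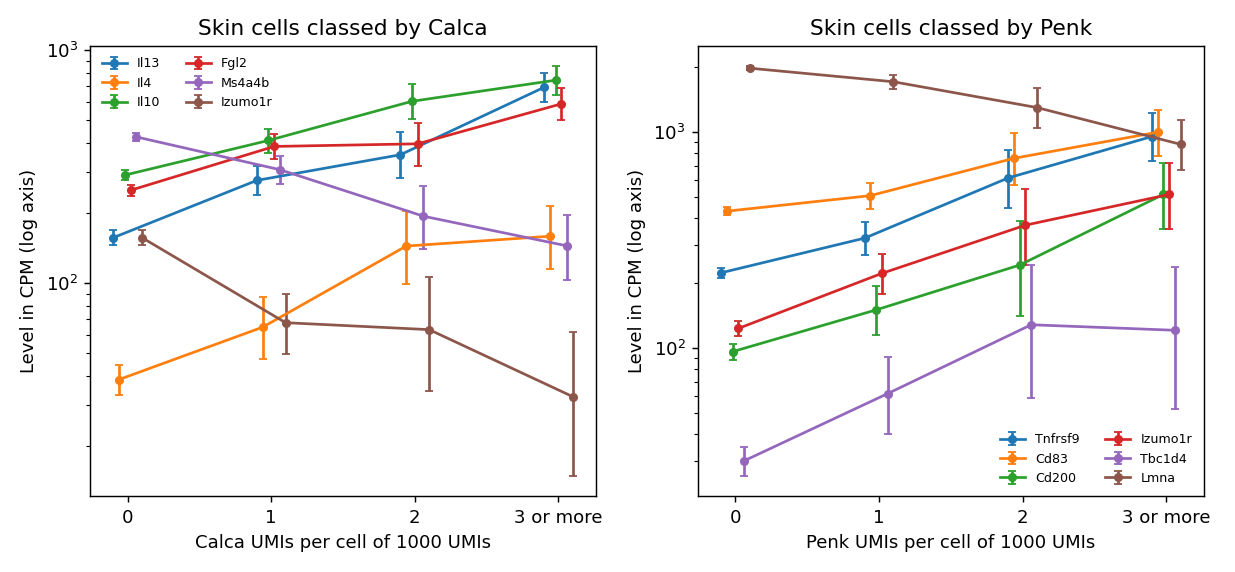
Level in CPM (log axis) of 6 named genes in skin cells with 0, 1, 2 and at least 3 UMIs of Calca (left) or Penk (right) per 1000 UMIs, with exact 95% Poisson intervals. The genes were chosen by their correlation with the member over the same cells. Il13 goes from 157 to 693 CPM by Calca and Tnfrsf9 from 224 to 955 CPM by Penk, and Izumo1r goes down by Calca (157 to 32.5) and up by Penk (124 to 515).

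Summed over the 1180 cells with and the 4832 cells without Calca, few genes were 2-fold apart (log2 scale with 10 CPM added, genes with at least 50 CPM on either side). Of 2978 genes, 3 were at least 2-fold higher with Calca (0.101%) and 13 lower (0.437%). The higher ones were Il13 (389 against 157 CPM, 2.48-fold, 2.21 to 2.79), Il4 (102 against 38.5 CPM, 2.64-fold, 2.08 to 3.34) and the lymphatic chemokine gene Ccl21a, of whose UMIs 34.2% lay in 1 cell. Of these, Il4 and Ccl21a reached 50 CPM only in the holding cells. The lower ones were Izumo1r (0.373-fold, 0.287 to 0.478), Ccr7 (0.405-fold, 0.303 to 0.532), the survival gene Bcl2, Cd9 and 9 genes of fibroblasts and myeloid cells (Col1a1, Col1a2, Col3a1, Dcn, Lum, Sparc, Gsn, Lyz2 and Retnla). In the T cell clusters alone, thinned anew, Il13 was again 2-fold higher and Izumo1r 2-fold lower. The other genes, Il4, Ccr7, Bcl2 and Cd9 among them, no longer passed these limits. Tspan13, which was not among the 13 lower genes over all cells, was 2-fold lower there. When the cells with the highest doublet scores were kept, the counts were 1 higher and 8 lower.

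For Penk, 5 of 3015 genes were at least 2-fold higher with it (0.166%) and 1 lower (0.0332%). Another random draw gave 6 higher and 6 lower, and keeping the highest doublet scores gave 8 and 5, so this split is not stable. The higher ones were Ccl1 (75.8 against 6.58 CPM, with 27 cells holding any), the interferon regulatory factor gene Irf8 (3.67-fold, 2.31 to 5.67), Tbc1d4 (2.57-fold, 1.79 to 3.63), Izumo1r (2.24-fold, 1.87 to 2.68) and Cd200 (2.15-fold, 1.73 to 2.63). Of these, Ccl1, Irf8 and Tbc1d4 reached 50 CPM only in the holding cells. The lower one was Ccl21a. Within T cell clusters, 3 were higher (Ccl1, Izumo1r and Tnfrsf9) and 0 lower. Of the 541 cells, 405 held a single Penk UMI.

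Cells with at least 5 UMIs were then set against cells with 0, in T cell clusters and at full depth, a comparison added after the data had been seen. For Calca (319 against 4122 cells), 8 of 3011 genes were 2-fold higher (0.266%) and 16 lower (0.531%). Genes needed at least 50 CPM on either side, which Il4 and Cysltr1 had only in the Calca-high cells. Il13 was 591 against 141 CPM (4.19-fold, 3.77 to 4.65) and had a UMI in 129 of the 319 cells. Il4 was 3.39-fold, Cysltr1 2.92-fold, Il10 2.498-fold, Fgl2 2.37-fold, Pxdc1 2.28-fold and Ly6a 2.07-fold higher. Izumo1r was 41.7 against 179 CPM (0.233-fold, 0.162 to 0.325), and the GTPase genes Gimap4 (0.206-fold) and Gimap6 (0.328-fold), Ms4a4b (0.334-fold), Bcl2, the semaphorin receptor gene Nrp1, Cd40lg and Ccr7 were low as well. Of the Ccr7 UMIs in those cells, 49.0% lay in 1 cell.

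For Penk (96 high cells), 76 of 3111 genes were 2-fold higher (2.44%) and 64 lower (2.06%). The limit of 50 CPM could be met on either side. Ccl1, Xcl1, Pdzk1ip1, Il5 and Irf8 met it only in the Penk-high cells. How many of the 76 did so was not counted. Tnfrsf9 was 989 against 215 CPM (4.60-fold, 4.10 to 5.16) and was found in 64 of the 96 cells. Irf8 was 6.85-fold higher, in 20 cells. The widest folds rested on few cells: Ccl1 (576 against 8.07 CPM) was found in 9 cells and 48.7% of its UMIs lay in 1, the chemokine gene Xcl1 (281 against 3.99 CPM) in 4 cells, and the type 2 cytokine gene Il5 (102 against 3.11 CPM) in 6 cells. Pdzk1ip1 (184 against 9.32 CPM) was found in 15 cells. Calca itself was among the low genes, at 93.6 against 401 CPM (0.233-fold, 0.159 to 0.330), with Metrnl (0.175-fold), Cysltr1, Fgl2 and the skin homing receptor gene Ccr10 (0.341-fold). The larger number of genes goes with fewer and deeper cells on the high side. Over all clusters the median depth was 3244 UMIs with at least 5 Penk UMIs and 2005 with 0. For Calca it was 2292 and 2016. The part of counting noise or of depth in the number of genes was not tested.

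Between the 2 kinds of high cell, Il13 was 588 CPM (538 to 642) in Calca-high and 142 CPM (106 to 188) in Penk-high cells, against 167 CPM in the rest. Cxcr6 was 1169 and 547 CPM, Klrg1, a marker of effector Tregs, 396 and 177 CPM, and S100a6 4190.5 and 1310.3 CPM. Izumo1r was 41.3 CPM (28.7 to 57.4) and 424 CPM (359 to 498), Ccr7 57.8 and 336 CPM, Tnfrsf9 250 and 963 CPM, Cd200 81.3 and 453 CPM, and Cd81 421 and 937 CPM. Gata3, the type 2 transcription factor gene, was 771 and 513 CPM, and Il5 2.36 and 99.7 CPM. Areg, which encodes amphiregulin, was 1529 and 1074 CPM around 1215 CPM in the rest. Foxp3 was 33.0 CPM (21.9 to 47.7) and 11.4 CPM (3.10 to 29.2), intervals that overlap. Ikzf2, which encodes Helios, was 1726 and 1461 CPM, and Cd4 163 and 182 CPM.

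Gene lists chosen with earlier results known were read in the same classes. Each list is given by its count and median log2 fold, beside a median of 0.02 with 54.7% of genes above 0 for Calca and of 0.00 with 51.0% above 0 for Penk over all genes with at least 50 CPM. Of 10 type 2 and repair genes, 8 lay above 0 with Calca (median 0.19), 2 of them 2-fold (Il13, Il4), and with Penk 4 lay above 0 (median -0.13). Besides these, Il10 was 525 against 291 CPM by Calca (1.80-fold, 1.64 to 1.98), and Bhlhe40 was 121 against 181 CPM (0.671-fold, 0.558 to 0.801). Il1rl1, the interleukin 33 receptor gene, stood at 150 and 151 CPM with and without Calca.

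Of 17 tissue and effector Treg genes, 15 were above 0 with Calca (median 0.22) and 5 with Penk (median -0.10), and 0 were 2-fold apart in either. Cxcr6 (1.57-fold), Maf (1.39-fold), Klrg1 (1.35-fold) and the integrin gene Itgae (1.33-fold) had the widest Calca folds. With Penk, Tnfrsf9 was 438 against 224 CPM (1.96-fold, 1.70 to 2.25), and the granzyme gene Gzmb was 131 against 189 CPM. Of 18 early response and cyclic AMP target genes, 11 were above 0 with Calca (median 0.05) and 6 with Penk (median -0.12), and 0 were 2-fold apart. Nr4a3 was 290 against 229 CPM with Calca (1.27-fold) and Jun 158 against 252 CPM (0.629-fold). Fos was 1639.6 against 2095 CPM with Penk (0.782-fold).

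Of the 10 central and lymphoid homing genes, only 3 had 50 CPM in a class. Ccr7 was 48.3 against 119 CPM by Calca and 190.4 against 97.1 CPM by Penk (1.962-fold, 1.57 to 2.43). Klf2 was 544 against 602 CPM by Calca and 444 against 605 CPM by Penk, and Il7r was 259 against 244 CPM by Calca, an interval that spans 1. Below that level, S1pr1 (8.47 against 31.2 CPM) and Tcf7 (11.02 against 30.01 CPM) were low with Calca. Of 7 core Treg genes, 3 were above 0 with Calca (median -0.12), and of 8 with Penk 6 were (median 0.18). Il2ra was 1.32-fold (1.15 to 1.51) with Calca, Nrp1 0.664-fold (0.498 to 0.873), and Izumo1r was 2-fold apart in opposite directions for the 2 members.

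Other peptide precursors were rare. Of 20 precursor genes, the members included, 9 had 0 UMIs in skin and 11 in lung. Calcb, the near-identical neighbour gene for a second CGRP, had 20 UMIs in skin and 0 in lung, and reads could be split between it and Calca. In thinned cells it stood at 8.47 CPM with and 0.828 CPM without Calca (10 and 4 UMIs). Nmb, which encodes neuromedin B, was the only other precursor above 20 CPM, at 47.7 CPM in skin and 13.0 CPM in lung, with 64.4 and 48.8 CPM by Calca (1.32-fold, 1.005 to 1.71). Adm, which encodes adrenomedullin, was at 7.50 and 6.99 CPM, and Pomc at 3.30 and 5.37 CPM. Pdyn, Pnoc, Vip, Adcyap1 and Nmu had 0 UMIs in both tissues, and Tac1, the substance P gene, had 1 in skin.

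The machinery that releases peptides was present in part. Pcsk1, which encodes the prohormone convertase PC1, had 239 UMIs in skin (16.4 CPM) and 2 in lung (0.0925 CPM), and was 27.1 against 16.6 CPM by Calca (1.64-fold, 1.05 to 2.497). Pcsk2, the other classical convertase gene, had 0 UMIs in both tissues. Furin stood at 116 CPM in skin and 24.4 CPM in lung and was 123 CPM with and without Calca. The carboxypeptidase gene Cpd was 34.6 and 3.10 CPM, Cpe was 12.7 and 1.25 CPM, and the amidating enzyme gene Pam, which CGRP needs, was 16.0 and 5.64 CPM. Cpe was lower with Calca (4.24 against 11.2 CPM, 0.379-fold, 0.118 to 0.941), and Pam stood at 8.47 against 11.4 CPM (0.744-fold, 0.338 to 1.47). The granule genes Chga, Chgb and Scg2 had 0 UMIs in both tissues. Mme, the enkephalin-degrading neprilysin gene, had 10 UMIs in skin.

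Receptor genes did not share the skin to lung pattern of Calca and Penk. Calcrl was 15.3 CPM in skin and 15.6 CPM in lung, Ramp1 37.6 and 70.4 CPM, Ramp2 12.6 and 34.8 CPM, and Ramp3 54.5 and 31.7 CPM. Cells with and without Calca held Calcrl at 22.9 and 15.7 CPM (1.45-fold, 0.901 to 2.28) and Ramp1 at 31.4 and 39.5 CPM (0.793-fold, 0.542 to 1.13), intervals that span 1. The delta, kappa and nociceptin receptor genes Oprd1, Oprk1 and Oprl1 had 0 UMIs in both tissues, and the mu receptor gene Oprm1 had 1 in skin and 15 in lung. Ogfr, which encodes the opioid growth factor receptor that binds Met-enkephalin, was 40.0 CPM in skin and 53.7 CPM in lung, with 42.5 and 37.5 CPM by Penk.

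In lung, a few cells held much of the Penk. At 1000 UMIs per cell its variance was 1.95 times its mean, against 3.0 times in skin, and at full depth 11.9 times against 7.95 times. Of its 147 UMIs, 38 (25.9%) lay in 1 cell of 8362 UMIs with 20 Cd3 UMIs, 10 Tnfrsf9 UMIs and 0 UMIs of fibroblast markers, and without it the level was 5.04 CPM (4.14 to 6.08). Next came cells with 8, 7, 5 and 5 UMIs, and 51 of the 68 cells held 1. Cluster 7, 305 cells led by Cd83, Areg, Bhlhe40, Rel and Tnfrsf9, held 34.7% of the Penk UMIs at 58.8 CPM (43.8 to 77.4). Of its 51 Penk UMIs, 38 lay in the highest cell, so this level and its interval rest largely on 1 cell. The level of cluster 7 without that cell was not computed, so its place above clusters 10 and 4 is not established. Cluster 10, 195 cells led by Klrg1, Areg and Il1rl1, stood at 33.3 CPM (21.1 to 49.9), and cluster 4, led by Gpr83, at 12.7 CPM (7.88 to 19.5). The other clusters that held any lay between 0.693 and 7.46 CPM.

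Without the highest cell, the 67 lung cells with Penk held Il10 at 82.3 against 7.48 CPM (11.003-fold, 6.25 to 18.2), at full depth. That level rests on 17 UMIs, the cells that hold them were not counted, and the most Il10 UMIs in any lung cell was 10. Klrg1 was 4.09-fold (2.60 to 6.15), Cd83 2.82-fold (1.87 to 4.11) and Tnfrsf9 2.27-fold (1.48 to 3.35) higher, from 24, 28 and 26 UMIs. Of the 10 genes most like Penk in skin, Izumo1r (1.19-fold), Cd200 (1.01-fold), Hsp90ab1 (0.989-fold) and Bcl2a1d (1.12-fold, from 2 UMIs) had intervals that span 1 in lung. Cd81, Rel, H2afz and Tbc1d4 were 1.61-fold to 1.93-fold higher. The genes lowest for Penk in skin were not all low in lung. Crip1 was 1.17-fold (1.06 to 1.29) higher and Tmsb4x was lower (0.903-fold, 0.872 to 0.934). S100a6 (1.16-fold), Vim (1.10-fold) and Lmna (0.946-fold) had intervals that span 1. Foxp3 had 0 UMIs in these 67 cells, where the 13.1 CPM of the other cells gives an interval up to 1.37-fold. Fibroblast markers summed to 2748 CPM in these cells against 202 CPM in the others, and 563 of those 568 UMIs lay in 1 cell with 1 Penk UMI. The 4 lung cells with Calca held 1, 1, 1 and 2 UMIs, too few to describe further.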

How the data were processed

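UMI counts per gene and barcode were used as deposited: per the submitters' processing notes the authors ran Cell Ranger on mm10, and per the file headers the lung matrix was written by software version 3.0.2. Barcodes had already been called as cells. The second lung table holds 8626 of the same 8730 barcodes and served as an alternative only. Skin and lung share 82 barcodes.

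Barcodes under 200 genes or over 10% mitochondrial UMIs were dropped (scanpy 1.11.5). Scrublet called 0.0309% of skin and 0.0231% of lung cells, so the 6% with the highest scores were removed in its place. Clusters (leidenalg 0.10.2, resolution 0.8, 2000 variable genes, 30 components, 15 neighbours) were rebuilt without Calca and Penk, so names can differ from the study's. Cells were thinned to 1000 UMIs with a fixed seed, and each other selection of cells was drawn anew, so its values also differ by the draw. Levels carry exact Poisson, ratios exact binomial, shares Clopper-Pearson and odds ratios exact conditional intervals. With 1 library per tissue no test was run. The code was tested on simulated data.

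The members, lists and markers were chosen with earlier results of these data known. Named genes are the 10 highest and 5 lowest correlations, list members (2 to 4 widest with at least 50 CPM, any of the peptide lists) and leading genes of clusters; Tspan13 and others named in the class counts, the high-cell comparisons and the lung cells were chosen after their values were seen. Of the 5 lowest correlations with Calca, 1 is not reported here.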

Additional observations from a re-analysis of the deposited data

How the results depend on the processing

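No paired analysis was possible because each tissue is 1 library. No tissue ratio, odds ratio or correlation of a named gene changed side under the alternatives run, but the split of genes higher and lower with a member did: for Calca it went from 3 and 13 to 286 and 274 in cells with a Foxp3 UMI, and for Penk from 5 and 1 to 6 and 6 with another seed, 8 and 5 with doublet scores kept or full counts, 8 and 6 without non-T markers and 53 and 45 at 500 UMIs. The log2 ratio of Calca moved from 6.17 to 6.39 without cells holding non-T markers, 6.46 in cells with a Foxp3 UMI, 5.96 with median-of-ratios scaling, 6.49 without mitochondrial and ribosomal protein genes in the totals, and 8.24 and 4.28 with 1 and 20 CPM added. That of Penk moved from 3.76 to 4.60 with a Foxp3 UMI, 3.44 with median-of-ratios scaling, 4.32 and 2.71 with 1 and 20 CPM added, and 3.998 without the lung cell of most Penk UMIs, an alternative chosen after seeing the data. The skin share of Calca was 21.8% without non-T markers, 21.1% with Foxp3, and 12.6% and 26.3% at 500 and 2000 UMIs per cell, and that of Penk 8.04%, 6.12%, 5.31% and 14.6%. The lung share of Calca was 0% with Foxp3 and at 500 UMIs, and that of Penk 0% with Foxp3, 0.179% at 500 and 0.719% at 2000 UMIs. The odds ratio of 0.80 was 0.40 with Foxp3, 0.58 at 500 UMIs, 0.60 with another seed and 0.59 with at least 2 UMIs (chosen after seeing the data), and at 3 UMIs in full counts 11 cells held both. The 16 genes of Calca-holding cells were 9 with doublet scores kept, 8 with at least 2 Cd3 UMIs, 3 without non-T clusters, 5 without non-T markers, 560 with Foxp3, 31 with full counts, 25 at a floor of 20 CPM and 30 with at least 2 UMIs. The 6 genes of Penk-holding cells were 13, 3, 14, 2174, 13, 22 and 211 under those alternatives apart from Cd3, 98 at 500 UMIs, 12 with another seed and 2 at 100 CPM. The Foxp3 counts rest on 69 and 20 holding cells. Of 1584 recomputed folds and 150 correlations of named genes, 1492 and 85 stayed within 0.5 (log2) and within the width that 6012 cells give, and 0 changed sign among those 2-fold apart and among the correlations.

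Depth limits what can be said of single UMIs, above all for Penk, and 1 cell holds 25.9% of the Penk UMIs of lung. With 1 library per tissue the spread between animals is unknown.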
